A study of Homo sapiens with 6 samples.

Results

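IFI44, IFI44L, IFI35 and NMI are 4 interferon-induced genes whose mRNA was followed here in HT1080 cells, an established human fibrosarcoma line. They were taken from the table of 62710 genes by their Ensembl IDs, as the neighbouring IFI44 and IFI44L on chromosome 1 and as IFI35 and NMI, whose proteins bind each other. Sequencing covered 3 libraries of untreated cells and 3 of cells kept for 24 h with IFNβ at 20 ng/mL. No other agent or genetic change is named for either group. Human IFNβ is named in the labels, whereas mouse IFNβ is named in the sequencing methods of the study. All libraries came from a single cell line. The methods of the study describe its cell culture experiments in general as independently replicated, but the labels do not say whether these libraries were separate cultures, and if they were not, the p-values measure only technical spread.

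Type I interferons bind the receptor chains IFNAR1 and IFNAR2, whose kinases TYK2 and JAK1 phosphorylate STAT proteins such as STAT2. Together with IRF9 these enter the nucleus and bind the interferon-stimulated response element (ISRE) in promoters, while the gamma-activated site (GAS) is bound by STAT dimers. IFI44 and IFI44L are related cytoplasmic proteins, both reported to bind the chaperone FKBP5, and the IFI44L transcript is widely used in blood as a marker of an interferon response. IFI35 and NMI (N-myc and STAT interactor) share a domain named after them, form a complex inside cells, and can be released to act on TLR4 as danger signals.

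The promoters are shown first, since all 4 genes are compared under a cytokine that acts through such elements. RefSeq windows of GRCh38.p14 were matched for 4 of 4 genes, and the 250 bases upstream of the start site are printed 5′ to 3′ in the direction of the gene. Where RefSeq gave IFI44 more than 1 start site, the upstream window was taken. The RefSeq start sites of IFI44L, IFI35 and NMI lie inside the longer spans that GENCODE gives these genes, and that of IFI44 just before it. Capitals mark matches to the ISRE core (GAAA, any 2 bases, GAAA) or the GAS core (TTC, any 3 bases, GAA), searched on both strands, with none of the matches overlapping.
IFI44L, chr1:78620198-78620447, plus strand: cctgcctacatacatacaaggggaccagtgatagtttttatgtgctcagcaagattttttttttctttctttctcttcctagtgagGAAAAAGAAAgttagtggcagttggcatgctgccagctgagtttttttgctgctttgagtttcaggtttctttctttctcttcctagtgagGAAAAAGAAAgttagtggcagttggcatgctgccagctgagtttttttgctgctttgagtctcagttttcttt
IFI44, chr1:78649539-78649788, plus strand: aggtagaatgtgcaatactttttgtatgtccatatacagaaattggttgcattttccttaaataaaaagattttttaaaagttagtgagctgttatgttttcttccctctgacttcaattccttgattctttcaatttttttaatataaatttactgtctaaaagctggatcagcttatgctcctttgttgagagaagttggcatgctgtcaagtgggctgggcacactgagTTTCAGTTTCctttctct
IFI35, chr17:43006534-43006783, plus strand: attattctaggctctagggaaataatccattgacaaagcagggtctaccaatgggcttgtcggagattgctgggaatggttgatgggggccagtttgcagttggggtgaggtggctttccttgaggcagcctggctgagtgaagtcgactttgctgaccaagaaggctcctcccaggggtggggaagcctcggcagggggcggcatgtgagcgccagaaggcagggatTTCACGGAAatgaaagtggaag
NMI, chr2:151289669-151289918, minus strand: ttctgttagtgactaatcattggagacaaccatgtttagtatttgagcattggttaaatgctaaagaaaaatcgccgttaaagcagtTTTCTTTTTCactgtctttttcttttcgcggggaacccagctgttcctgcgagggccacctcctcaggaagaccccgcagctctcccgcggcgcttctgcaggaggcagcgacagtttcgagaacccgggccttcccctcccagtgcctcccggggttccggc
The capitals are the ISRE core in IFI44L, IFI44 and NMI and the GAS core in IFI35.

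An ISRE core was found in the windows of IFI44L, IFI44 and NMI. IFI44L held it at 2 places, from base -164 and from base -73, counted from the start site. Of the ISRE matches, that of IFI44 lay closest to its start site, from base -18 to base -9, and that of NMI ran from -163 to -154. Counted from the other RefSeq start site of IFI44, its match ran from -60 to -51. In IFI35 only the GAS core was found, from -22 to -14, and NMI held another GAS core downstream of its start, from base 18 to 26. Of all 35116 RefSeq windows of 300 bases, which include 50 bases after the start, 3.57% held an ISRE core, 0.259% held at least 2, and 7.66% held a GAS core. A match is a description of letters and not a bound site, and the lack of a match says only that these letters are not in this window.

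The 2 ISRE cores of IFI44L belong to a tandem repeat. A stretch of 85 bases (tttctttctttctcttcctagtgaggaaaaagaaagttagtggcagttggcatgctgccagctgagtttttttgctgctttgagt) occurs again, letter for letter, 91 bases downstream. A run of 13 bases (agttggcatgctg) from this repeat is also present in the IFI44 window, starting at base -54. Each of the other pairs of windows shared at most 11 bases in a row.

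In the table, each value is an FPKM, the number of sequenced fragments scaled by the length of the gene and by the fragments of the library. The libraries were divided by 22848104 to 32915500 fragments, so 1 fragment of a 1 kb gene is worth 0.0304 to 0.0438 FPKM. Marker lists were read as a check on a mesenchymal cell type, and they cannot tell HT1080 from other mesenchymal lines. The 6 mesenchymal markers, with vimentin (VIM) at 399 ± 23.9 FPKM (S.D., n = 3) before treatment, were no DEGs. They summed to 1013 to 1018 FPKM in untreated and 923 to 947 FPKM in IFNβ-treated libraries. S100A4 was the lowest of the 6, at 2.68 FPKM before treatment. The 7 blood cell markers summed to at most 0.249 FPKM and none passed the filter. The 5 epithelial markers summed to 0.256 to 0.445 FPKM in untreated and 0.580 to 0.654 FPKM in IFNβ-treated libraries, with CLDN4 as the main contributor (0.314 and 0.575 FPKM, log2 fold change 0.73, no DEG) and EPCAM at 0 before treatment. The 4 endothelial markers summed to 0.268 to 0.421 and 0.471 to 0.530 FPKM, and none was a DEG. The part of these cell type markers in the results was not tested.

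The 4 genes were all higher after 24 h of IFNβ. IFI44L went from near absence to 35.2 FPKM, IFI44 rose 44.9-fold to the highest level of the group, IFI35 rose 25.1-fold and NMI 5.85-fold. A gene was called differentially expressed (DEG) when limma on log2(FPKM + 0.1) gave a log2 fold change of 1 or more in size with an adjusted p-value (Benjamini-Hochberg) below 0.05. By this rule 4 of 4 were DEGs with a higher level, against 3.49% of the 20716 genes tested (722 genes), while 0.739% were DEGs with a lower level and 4.22% were DEGs in either direction. For 4 of 4 every IFNβ-treated library lay above every untreated one, as was so for 22.3% of all genes tested, and the groups were apart in either direction for 46.6%. Their median log2 fold change was 5.05, against 0.00017 for all genes tested. In bulk RNA, a higher level per cell and a larger share of cells with the transcript cannot be told apart.

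IFI44L (ENSG00000137959) is a protein-coding gene on the plus strand of chromosome 1, from 78619922 to 78646145 in GENCODE release 29 (GRCh38). Its untreated libraries read 0.0038, 0.0029 and 0.0026 FPKM, and the IFNβ-treated ones 35.7, 34.7 and 35.1 FPKM. The untreated values are those of 1 fragment in each library, whereas 12757, 10077 and 11783 fragments were recovered after IFNβ. Per fragment sequenced, the pooled rate was 11644 times higher, with a 95% exact interval from 3984 to 56463 that covers counting error only. On the log2 scale the change was 8.42 with a standard error of 0.06 (adjusted p = 3.1e-09 in limma), rank 5 of all genes tested (2 to 15 under the other settings). This value depends on the pseudocount, as it was 5.17 with a pseudocount of 1 and 11.39 with 0.01, and it reached 12.93 with limma-voom on the recovered fragments. The standard error and p-value depend on it too, since a pseudocount far above the untreated FPKM hides the spread of the untreated libraries. With limma-voom the standard error was 0.61 (adjusted p = 8.5e-14). The interval of the fragment ratio is therefore the better guide to the size of the change.

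IFI44 (ENSG00000137965) starts 3650 bases beyond the end of IFI44L on the same strand, from 78649796 to 78664078. It had 5.48, 4.56 and 4.71 FPKM in untreated cells and 223, 216 and 223 FPKM after IFNβ. Unlike its neighbour it was measured well in both groups, with 255 to 316 fragments before and 10987 to 14022 after treatment. The lowest IFNβ-treated library was 39.4 times above the highest untreated one. Its log2 fold change of 5.46 had a standard error of 0.07 (adjusted p = 4.6e-08 in limma) and a 95% interval from 5.30 to 5.62. Among all genes tested its mean level moved from rank 6928 to rank 96.

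The response of the neighbours was compared as the log2 ratio of IFI44L to IFI44 in each library, with 0.1 added to each FPKM. The ratio was -5.75, -5.50 and -5.55 in untreated and -2.64, -2.63 and -2.66 in IFNβ-treated libraries, so the groups did not overlap. The untreated ratios are set largely by the pseudocount. Without it, the FPKM of IFI44 was 1453, 1572 and 1800 times that of IFI44L in untreated libraries, from 1 IFI44L fragment each. After IFNβ it was 6.26, 6.21 and 6.34 times. With 0.1 added, the groups differed by 2.95 on the log2 scale (IFNβ-treated minus untreated). The two-sided exact permutation test gave p = 0.10, the smallest value that 3 libraries against 3 allow. The direction was lost with a pseudocount of 1, where the difference was -0.06, and the size grew to 5.90 with a pseudocount of 0.01 and to 7.42 with limma-voom on recovered fragments. The counting interval of the IFI44L fragment ratio, from 3984 upwards, lay wholly above that of IFI44, from 42.4 to 48.7. No stretch of 50 bases was shared between the GENCODE transcripts of the 2 genes, nor between either of them and those of any other gene.

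IFI35 (ENSG00000068079), a protein with a leucine zipper motif, lies on the plus strand of chromosome 17 from 43006725 to 43014456. The untreated libraries had 5.39, 7.06 and 5.77 FPKM, from 241, 410 and 372 fragments. After IFNβ they had 153, 152 and 153 FPKM, with a coefficient of variation of 0.365%, the lowest of the 4 genes. The 95% counting interval of IFNβ-treated replicate 1 alone was wider than this spread, at 150 to 156 FPKM. Untreated replicate 2 stood above the other 2, and its 95% counting interval of 6.39 to 7.77 FPKM did not meet that of untreated replicate 1, 4.73 to 6.11 FPKM. IFI35 had a log2 fold change of 4.64 with a standard error of 0.09 (adjusted p = 4.6e-07 in limma), and of 4.75 without untreated replicate 2.

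NMI (ENSG00000123609), named for its binding to MYCN and to STAT proteins, lies on the minus strand of chromosome 2 from 151270465 to 151290057. It had 4.74, 4.27 and 4.86 FPKM in untreated cells and 26.6, 26.4 and 28.2 FPKM after IFNβ. The groups were well apart, although NMI had the smallest change of the 4. Its log2 fold change of 2.52 had a standard error of 0.05 (adjusted p = 6.7e-07 in limma) and a 95% interval from 2.39 to 2.66 and rank 162 among all genes tested (84 to 513 under the other settings).

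IFI35 and NMI began at similar levels and ended apart. The FPKM of IFI35 was 1.14, 1.65 and 1.19 times that of NMI in the untreated libraries and 5.75, 5.76 and 5.42 times after IFNβ. The groups did not overlap, and the log2 ratio of NMI to IFI35 differed by -2.11 (IFNβ-treated minus untreated, two-sided exact permutation test, p = 0.10, the smallest possible). With this ratio and that of IFI44L to IFI44, 2 ratios were tested, and the Benjamini-Hochberg adjusted value is also 0.10. The transcripts of IFI35 and NMI shared no stretch of 50 bases with each other, and 2.60% and 0.936% of their stretches occurred in transcripts of other genes. Whether the counting split such fragments was not tested.

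**Figure D1:**
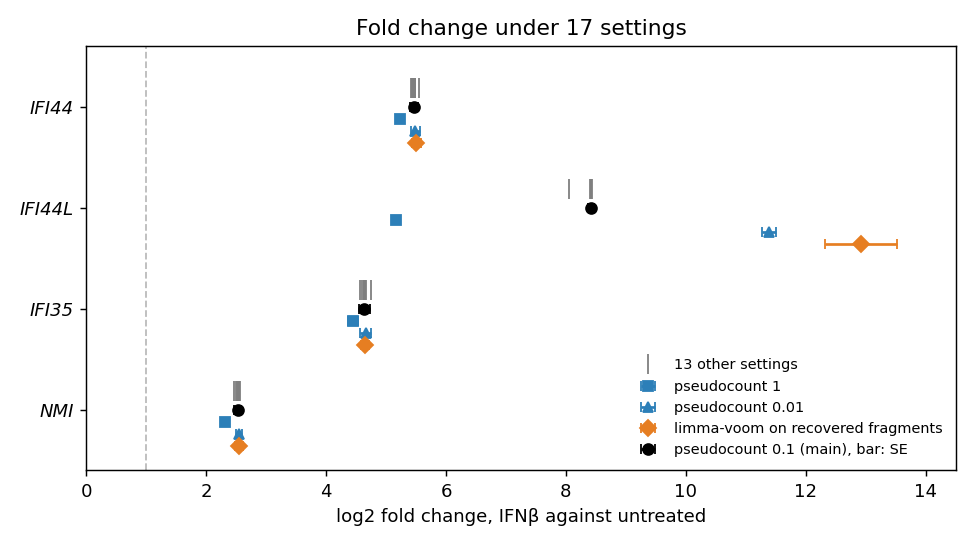
Log2 fold change of the 4 genes under 17 settings of the analysis, with black points for the value reported, blue squares and triangles for pseudocounts of 1 and 0.01, orange diamonds for limma-voom on recovered fragments, grey ticks for the 13 other settings and bars for the standard error. The dashed line is the fold threshold of 1, and all values lie beyond it. The values of IFI44, IFI35 and NMI stay within 5.23 to 5.54, 4.45 to 4.75 and 2.32 to 2.56, whereas IFI44L spans 5.17 to 12.93.

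By FPKM, the order after IFNβ was IFI44 with 221 ± 4.24, IFI35 with 153 ± 0.557, IFI44L with 35.2 ± 0.472 and NMI with 27.0 ± 1.01 FPKM (S.D., n = 3 each). No neighbours in this order overlapped. In untreated cells it was IFI35 with 6.07 ± 0.874, IFI44 with 4.92 ± 0.490 and NMI with 4.63 ± 0.311 FPKM (S.D., n = 3 each), followed by IFI44L. Here neighbours in the order, IFI35 and IFI44 as well as IFI44 and NMI, overlapped and were not separated beyond their spread. In FPKM every IFI35 value lay above every NMI value, which did not hold on the other scales below.

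A comparison of levels between genes rests on the gene length that the authors divided by. From the value of single fragments, these lengths came to 2038 bases for IFI44, 11610 for IFI44L, 1958 for IFI35 and 3312 for NMI. The longest coding transcripts in GENCODE release 29 are shorter, with 1687, 5874, 1241 and 1623 bases. IFI44L was thus divided by 1.98 times and NMI by 2.04 times the length of its longest coding transcript, against 1.21 times for IFI44 and 1.58 times for IFI35.

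In the IFNβ-treated libraries, IFI44 exceeded IFI44L by 6.27 ± 0.0668 times in FPKM (S.D., n = 3). Per kb of the longest coding transcript the ratio was 3.83, and in fragments with no correction for length it was 1.10, with 449.8 ± 8.65 CPM against 408 ± 5.49 CPM (S.D., n = 3 each), where CPM are fragments scaled to library size alone. IFI35 exceeded NMI by 5.64 times in FPKM, 4.36 times per kb of the longest coding transcript and 3.33 times in fragments. IFI44 was highest and NMI lowest on all 3 scales. IFI35 stood above IFI44L in FPKM and per kb of the longest coding transcript, at 241 against 69.5, but below it in fragments, at 299 against 408 CPM. In untreated libraries the order changed with the scale too. Per kb of the longest coding transcript IFI35 had 9.58, NMI 9.44 and IFI44 5.94, and in fragments they had 11.9, 15.3 and 10.0 CPM. The ratio of the FPKM of a gene between the groups does not involve its length. The log2 fold change does, since the pseudocount of 0.1 is added after division by length. This matters most for IFI44L, whose untreated FPKM lies far below 0.1.

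The 4 genes were set beside 40 other interferon-stimulated genes, a list that was written with results of these data known and that shares members, among them STAT2, IRF9 and RIGI, with the lists that follow. All 40 were DEGs with a higher level, against 3.49% of all genes tested. The median log2 fold change of the 40 was 5.00, with a range from 2.05 to 10.68. IFI44L was exceeded by 4 of the 40 in log2 fold change (BST2, RSAD2, IFIT1 and MX2), IFI44 by 17, IFI35 by 21 and NMI by 37. For genes near 0 before treatment, this order depends on the pseudocount of 0.1. By the ratio of mean FPKM, IFI44L rose 11363-fold. The same ratio was 5152 for RSAD2, 4238 for BST2, 2484 for MX2 and 450 for IFIT1. IFI44L, RSAD2, BST2 and MX2 had at most 8 recovered fragments per untreated library, so these ratios are imprecise. In FPKM after IFNβ, 7 of the 40 stood above IFI44, among them ISG15 at 1448 and IFI6 at 1174 FPKM, and the same number stood above IFI35. IFI44L was exceeded by 29 and NMI by 32. Of the 40, 32 had a RefSeq promoter window, and 23 of these held the ISRE core and 9 the GAS core in any window. Counted in the same way over all 27305 genes with windows, 4.38% held the ISRE core and 9.38% the GAS core.

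Of the 7 genes of the signalling route from receptor to IRF9, 3 were DEGs with a higher level, against 3.49% of all genes tested. None was lower, and the median log2 fold change was 0.38. Among them, STAT2 rose from 3.88 to 40.6 FPKM (log2 fold change 3.35, standard error 0.03) and IRF9 from 0.136 to 1.53 FPKM (2.79, standard error 0.15). Both had a larger log2 fold change than NMI and a smaller one than IFI35. The receptor chains and kinases were no DEGs, with log2 fold changes of -0.20 for IFNAR1, 0.32 for IFNAR2, 0.38 for JAK1 and 0.16 for TYK2.

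Proteins reported to bind or act with IFI35 and NMI formed the next list. Of its 13 genes, 10 passed the filter, and 3 of these were DEGs with a higher level, against 3.49% of all genes tested. None was lower, and the median log2 fold change was 0.49. Among the DEGs were the RNA sensor RIGI (3.06, from 0.0752 to 1.36 FPKM) and the ubiquitin ligase TRIM21 (2.36, from 14.9 to 76.8 FPKM). TLR4, the receptor for released IFI35 and NMI, had 3.75 FPKM before and 7.26 FPKM after IFNβ, with a log2 fold change of 0.94 just under the threshold (limma adjusted p = 7.1e-05). STAT3 had a log2 fold change of 0.68, STAT5A of 0.30, STAT5B of -0.16, IRF7 of 0.015, PLEKHO1 of -0.07 and MYC of -0.04. The transcription factors BATF and MYCN were listed at 0 in all 6 libraries, and SOX10 was under the filter.

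For IFI44 and IFI44L the partners listed were FKBP5 and the kinases IKBKB and IKBKE, to which FKBP5 binds. None of the 3 was a DEG. FKBP5 had 5.87 FPKM before and 8.60 FPKM after IFNβ, which is 0.54 on the log2 scale with a standard error of 0.03 (adjusted p = 3.3e-05 in limma), while IKBKE had 0.53 and IKBKB 0.19. All 3 passed the p-value threshold without the fold threshold, as did 6778 of the 20716 genes tested.

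The genes around the members were taken as the 2 nearest protein-coding genes on each side in GENCODE release 29. Of 12 such genes 10 were tested, and 2 were DEGs with a higher level, against 3.49% of all genes tested. Both lie beside NMI. RBM43, which encodes an RNA-binding protein and lies 8585 bases from NMI, rose to 4.08 ± 0.177 FPKM against 1.56 ± 0.255 FPKM in untreated cells (S.D., n = 3 each). On the log2 scale this was 1.35 with a standard error of 0.12 (adjusted p = 3.0e-04 in limma). RND3, which lies 731453 bases away, rose to 71.8 ± 1.00 FPKM against 34.3 ± 3.26 FPKM (S.D., n = 3 each), or 1.07 on the log2 scale. Both sit near the threshold, since RBM43 had 0.995 with a pseudocount of 1 and RND3 had 0.988 without untreated replicate 2.

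On the other side of NMI, TNFAIP6 had a log2 fold change of 0.81 (limma adjusted p = 0.021), from 0.599 to 1.12 FPKM, and RIF1 one of -0.05. By the DEG rule none of the genes tested around the other members was called. IFI44L and IFI44 stood between PTGFR at -0.29 and ADGRL4 at -0.29, 80172 and 225685 bases away. IFI35 is packed more closely. RPL27, a ribosomal protein gene 3765 bases away, had a log2 fold change of -0.14 at 193 FPKM before treatment. VAT1, which lies 148 bases from IFI35 on the opposite strand, had -0.46 with a standard error of 0.02 (adjusted p = 3.9e-05 in limma), from 27.1 to 19.7 FPKM. No exon of another gene overlapped an exon of the 4 members in GENCODE release 29.

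The genes most alike were sought by the Euclidean distance of log2(FPKM + 0.1) over the 6 libraries, which reads level and change together. For IFI44 they were IFI35 (distance 1.15), IFIT3 (1.54) and the peptide transporter subunit TAP1 (1.99). For IFI35 they were TAP1 (0.929), IFI44 (1.15) and PARP14 (1.42), so that IFI35 was nearer to IFI44 than to its binding partner. For IFI44L they were MX2 (0.619) and the chemokine genes CXCL10 (1.25) and CXCL11 (1.26), of which CXCL10 was listed at 0 in all untreated libraries. For NMI they included TDRD7 (0.776) and TMEM62 (0.922). The distances describe 6 libraries that share their 2 groups, and carry no test.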

How the data were processed

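RNA of 3 untreated and 3 IFNβ-treated HT1080 libraries was sequenced as paired reads of 150 bases. The authors deposited FPKM for each Ensembl gene and library, with no pooling. The submitters' processing notes name fastp, HISAT2, StringTie and GRCh38, without versions, and the annotation and the use of strand are not given in the sources used here. Of the gene IDs, 4436 are not in GENCODE release 29. Symbols came from a table of gene names (62639 IDs matched).

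The groups were tested in limma 3.58.1 under R 4.3.3 (lmFit, then eBayes with trend, no covariate) on log2(FPKM + 0.1), keeping genes whose FPKM averaged 0.1 or more. This pseudocount understates the change of low genes. The study used DESeq2, which needs counts, and these are not the deposited unit. Fragments were recovered for 100% of 35303 genes above 0, as the smallest whole numbers (tolerance 1e-06) in the proportions of the FPKM, or from exon lengths of release 29 where these gave whole numbers. The divisors of the libraries, 22848104 to 32915500 fragments, were found first, from the FPKM and the exon lengths of release 29. Recovered fragments summed to 22677224 to 32669574 per library. They gave exact 95% intervals, which cover counting error only. The smallest whole numbers are lower bounds, since the true numbers could be a multiple of them. The fit was tested on simulated data. Pairs were compared by exact permutation tests, with Python 3.11.15 and scipy 1.17.1.

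Named genes were the members, genes of the lists, the 2 nearest protein-coding genes on each side and the 3 genes with the smallest distance. Genes with exons that overlap those of a member were also to be named, but there were none. Some genes of the lists and of the nearest genes are not reported here. Members and lists were chosen with earlier results of these data known. Alternatives were other pseudocounts, filters and scalings, a block on the replicate number, eBayes with no trend, limma-voom on fragments, no fold threshold and each library left out.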

Additional observations from a re-analysis of the deposited data

How the results depend on the processing

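The 4 genes remained DEGs with a higher level under 16 other settings of the fit, with limma adjusted p-values of at most 5.4e-05. The log2 ratio of IFI44L to IFI44 (2.95) reversed to -0.058 with a pseudocount of 1, which lies far above the untreated FPKM of IFI44L, and was 5.90 with one of 0.01 and 7.42 with limma-voom on fragments. With single libraries left out it ran from 2.88 to 3.004, and that of NMI to IFI35 from -2.28 to -2.02. Of all genes, 875 were DEGs, 722 higher and 153 lower. These numbers became 304, 278 and 26 under a pseudocount of 1, and 425, 365 and 60 when only the 11996 genes averaging 1 FPKM or more were tested. Without the fold threshold there were 6778, 3153 and 3625, and the counts of DEGs were 6 for the signalling list (3 with it), 6 for the partners of IFI35 and NMI (3), 3 for those of IFI44 and IFI44L (0) and 6 for the neighbouring genes (2). The neighbouring DEGs numbered 1 with a pseudocount of 1 and 1 to 2 with single libraries left out, RND3 being lost without untreated replicate 2. With single libraries left out, DEGs numbered 809 to 867. The deviations of same-numbered libraries from their group means had correlations of 0.05, -0.02 and 0.12 over 11996 genes. Those of differently numbered libraries ran from -0.15 to 0.10. With 3 libraries per group these values cannot decide whether the libraries were paired, and the main fit took no pairs. With the replicate block there were 829 DEGs and the 4 genes kept their calls. IFI44L had 1 fragment per untreated library, so depth limits the size of its change and not its direction.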
